A study of Mus musculus with 7 samples.

Results

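The Fanconi anaemia and homologous recombination genes described here are a list of 46 genes, chosen by gene name, with earlier results of these data known, among the 27179 genes counted in the series. They cover the proteins that find and unhook DNA crosslinks, the proteins that repair a broken chromosome from its sister copy, and the kinases and adaptors that report the damage to the cell cycle. Fanci was given as the gene that marks the list. All 46 genes had enough counts to be tested.

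The cells were alveolar macrophages, phagocytes that live in the air spaces of the lung, which had been selected by flow cytometry from bone marrow chimeras on the C57BL/6 background. Recipient C57BL/6-Ly5.1 mice had been lethally irradiated and given a marrow mixture in which 90% was Ly5.2 marrow, either wild type or Suz12 cKO (conditional knockout), and 10% was wild type Ly5.1 marrow in both groups. Polyadenylated RNA was sequenced as 4 libraries of wild type and 3 of Suz12 cKO, biological replicates per the design text, and the comparison asks how loss of Suz12, a core subunit of the histone methyltransferase PRC2 (Polycomb repressive complex 2), alters the transcripts of these cells. The Cre line, the age and sex of the mice, the time after transplantation and any gate on the Ly5 allele were not given, so wild type cells from the 10% of competitor marrow, or cells that escaped deletion, may be present in the Suz12 cKO libraries.

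As background, the Fanconi anaemia pathway acts on crosslinks that join both DNA strands and block a replication fork. A multiprotein core complex attaches ubiquitin to the FANCI and FANCD2 proteins, which clamp onto DNA and recruit nucleases, and the break that results is repaired by homologous recombination, in which BRCA1, PALB2 and BRCA2 prepare a resected end to pair with the intact copy. Recombination needs a sister chromatid, so many of these genes are transcribed mainly in cells that replicate their DNA. Alveolar macrophages are long-lived cells that renew themselves at a low rate in the lung.

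Levels are given as CPM (read counts relative to the library's total) after scaling of each library by the trimmed mean of M-values (TMM), and levels of different genes are compared only per kilobase of exon. A gene is called where the adjusted p of the edgeR quasi-likelihood test, corrected over all 14436 tested genes, was under 0.05. The deposited counts summed to between 48104653 and 79281431 per library. Suz12 itself measured 56.5, 56.3, 73.9 and 68.9 CPM in the 4 wild type libraries and 22.1, 23.6 and 15.1 CPM in the 3 Suz12 cKO libraries, so the libraries followed their labels. The libraries Suz12 cKO 1, Suz12 cKO 2 and wild type 2 stood apart, with 146, 108 and 39.7 CPM of haemoglobin transcripts against 1.94 to 3.72 CPM in the other libraries. Of 12 alveolar macrophage markers, 7 were called higher and 1 lower, and their summed level was 24222 to 27656 CPM in wild type and 29169.9 to 33465 CPM in Suz12 cKO. Of 10 markers of monocytes and interstitial macrophages, 4 were called higher (summed 2384 to 3598 against 5599 to 7465 CPM). Of the 9 listed neutrophil markers, 6 could be tested and 4 were called higher (summed 113 to 139 against 186 to 253 CPM), with Ly6g at 0 in every library. Of 6 markers of alveolar epithelium, Epcam was called lower, whereas Sftpc was at 0 in 3 libraries. The log2 fold change was below 0 for 2 of the 6 and above 0 for 4, with a median of 1.04, and none was called higher. None of the 3 haemoglobin, 6 lymphocyte and 4 stromal and endothelial markers that could be tested was called by edgeR or by DESeq2, and 0 had an unadjusted p under 0.05. As background for these marker counts, edgeR called 6.28% of all tested genes higher and 4.02% lower.

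The start regions were searched for letters that are known from cell cycle promoters, and some are shown here. RefSeq windows of 250 bases before and 50 bases after the transcription start (GRCm38.p6) existed for 36 of the 46 genes. They were searched on both strands for 7-letter cores of the E2F site (TTCCCGC or TTCGCGC or TTGCCGC or TTGGCGC), for the CHR element (TTTGAA) and for the CCAAT box (CCAAT), sequence classes known from the promoters of genes that are transcribed with the cell cycle. An E2F core was found in 19 of the 36 genes (52.8%), against 18.9% of the 10818 tested genes with a window and 26.4% of the 447 genes called lower in the whole table. Within the list it was found in 6 of the 9 genes called lower that had a window (66.7%) and in 13 of the 27 others (48.1%). CHR letters were found in 3 of the 36 genes (8.33%, against 14.7% of the tested genes) and CCAAT in 21 (58.3%, against 42.8%). Such a match is a description of the letters, not evidence of binding.

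The 6 genes called lower whose window holds an E2F core are printed 5′ to 3′ on the strand of the gene, with the core in capitals, and 2 called genes with no core in their window, Fanca (called lower) and Trp53bp1 (called higher), are printed beside them. Rad18 and Rad54l, called lower, also hold no core, so the core does not separate the genes called lower from the others. Positions count as 1 the start on which the RefSeq window was built, which need not be the outermost annotated start of the gene. In the RefSeq annotation the Chek2 and Topbp1 genes begin at 110839800 and 103305167, within the printed stretches and upstream of their cores. Trp53bp1, on the minus strand, extends to 121296354, so its window lies inside the gene. The core begins at position 19 in Fanci, 13 in Rad51ap1, 22 in Brca1, -4 in Brip1 and -152 in Chek2, each read on the opposite strand, and 2 overlapping cores begin at -132 and -129 in Topbp1. The stretches are chr7:79392338-79392367 (plus strand, noncoding exon of Fanci, limited to 30 bases), chr6:126939558-126939637 (minus strand), chr11:101551926-101552005 (minus), chr11:86201164-86201243 (minus), chr5:110839795-110839874 (plus), chr9:103305159-103305238 (plus), chr8:123318547-123318626 (minus) and chr2:121271378-121271457 (minus). In GENCODE M21, 30 bases of the Rad51ap1, Brca1, Brip1 and Trp53bp1 stretches and 24 of the Topbp1 stretch lie in a noncoding part of that gene's first exons. The Chek2 stretch overlaps no exon in GENCODE M21, although the RefSeq Chek2 gene begins within it. Of the Fanca stretch, 30 bases are exonic in GENCODE M21, 7 of them coding.
Fanci: gcggctgcgtggagtagaGCGGGAAttttg
Rad51ap1: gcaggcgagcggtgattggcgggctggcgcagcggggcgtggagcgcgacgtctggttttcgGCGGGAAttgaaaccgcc
Brca1: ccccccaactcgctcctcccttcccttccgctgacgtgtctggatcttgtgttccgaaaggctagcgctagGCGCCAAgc
Brip1: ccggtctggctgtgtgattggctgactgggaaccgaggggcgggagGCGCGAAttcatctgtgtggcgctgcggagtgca
Chek2: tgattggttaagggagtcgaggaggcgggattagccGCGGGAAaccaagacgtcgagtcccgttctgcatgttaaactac
Topbp1: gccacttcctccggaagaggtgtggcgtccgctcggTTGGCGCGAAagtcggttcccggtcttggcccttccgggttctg
Fanca: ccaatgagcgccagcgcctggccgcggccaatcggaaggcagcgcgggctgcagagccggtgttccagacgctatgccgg
Trp53bp1: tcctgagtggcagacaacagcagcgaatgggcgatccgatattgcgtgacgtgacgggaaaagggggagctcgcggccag

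In Suz12 cKO alveolar macrophages 10 of the 46 genes were called lower and 1 was called higher. The genes called lower were Fanci, Rad51ap1, Brip1, Brca1, Rad54l, Fanca, H2afx, Chek2, Rad18 and Topbp1, from 7.92-fold lower for Fanci to 1.71-fold lower for Topbp1. The gene called higher was Trp53bp1, by 1.35-fold. The share called lower was 21.7% of the list, against 4.02% of all tested genes, and the share called higher was 2.17%, against 6.28%. The shares of all tested genes are also the background for the counts in each role group below. The log2 fold change was below 0 for 38 of the 46, with a median of -0.52 over the list and 0.00 over all tested genes. In 20 genes every Suz12 cKO library lay below every wild type library, an arrangement found for 11.5% of all tested genes, and in 1 gene every Suz12 cKO library lay above, against 14.1%. In these bulk libraries, fewer cells that transcribe a gene and less transcript per cell cannot be told apart. Leaving out Suz12 cKO 2, wild type 1 or wild type 3 reduced the number called lower to 6 in each case, while the share of all tested genes called lower fell to 1.81%, 2.10% and 2.22%. Within the 4 libraries of low haemoglobin RNA (1 of them Suz12 cKO) 8 genes were called lower, and within the 3 of high haemoglobin RNA (1 of them wild type) 7 were; over all tested genes 2.43% and 2.08% were called lower there. Fanci had log2 fold changes of -2.79 and -2.95 in these subsets, and Chek2, Fanca, Rad18, Rad54l and Trp53bp1 were called in neither. Each subset leaves 1 group with a lone library, whose spread is assumed to equal that of the other group.

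**Figure D1:**
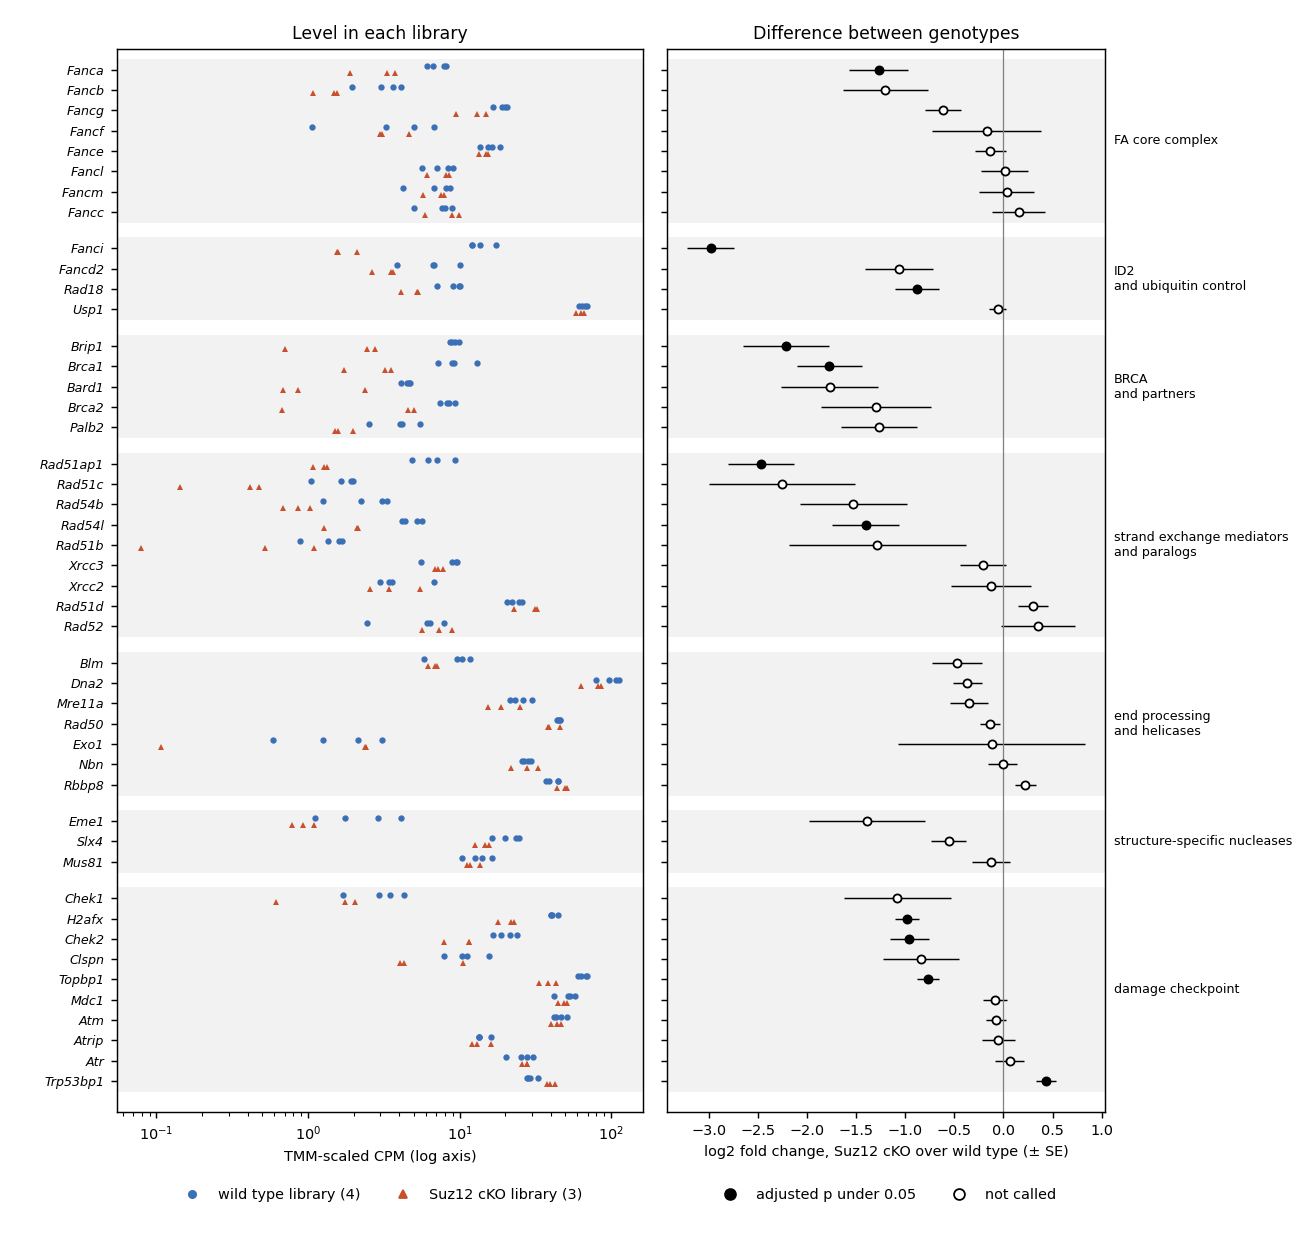
Left, level of each of the 46 genes in the 4 wild type libraries (circles) and the 3 Suz12 cKO libraries (triangles), in TMM-scaled CPM on a log axis, grouped by role. Right, log2 fold change of Suz12 cKO over wild type with its standard error, filled where the adjusted p was under 0.05. All 5 genes of the BRCA group lie to the left of 0, from -2.22 to -1.27, and the genes of end processing lie between -0.47 and 0.22.

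In the pair that the pathway turns on, and in the enzymes that control its ubiquitin, Fanci and Rad18 were called lower while Fancd2 and Usp1 were not called. Fanci, a subunit of the clamp, measured 17.3, 12.0, 12.1 and 13.7 CPM in wild type and 1.55, 1.57 and 2.10 CPM in Suz12 cKO. The groups lay far apart, with the highest Suz12 cKO library below the lowest wild type library. The log2 fold change of Fanci was -2.99 ± 0.24 (standard error; edgeR adjusted p = 0.000463). About 16.0% of the Fanci exon bases are shared with Polg on the opposite strand, and whether the counting used strand was not stated; Polg measured 61.9 CPM in wild type and 56.3 CPM in Suz12 cKO on average. Fancd2, the other subunit of the clamp, measured 10.1, 6.76, 6.71 and 3.86 CPM in wild type and 3.52, 2.65 and 3.64 CPM in Suz12 cKO. Its groups did not overlap, but wild type 4 lay close to Suz12 cKO 3, and the log2 fold change of -1.07 ± 0.35 was not called (edgeR adjusted p = 0.0903).

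Rad18, a ubiquitin ligase for the replication clamp PCNA at stalled forks, measured 9.87, 9.09, 10.0 and 7.05 CPM in wild type and 5.33, 4.11 and 5.23 CPM in Suz12 cKO. The groups did not overlap, and the log2 fold change was -0.88 ± 0.22 (edgeR adjusted p = 0.0392). That call ended when any of the 3 Suz12 cKO libraries, wild type 1 or wild type 3 was left out (adjusted p = 0.0681 to 0.139), with no filter on low counts (0.0537) and with a term for haemoglobin RNA (0.0617). Usp1, the enzyme that removes ubiquitin from FANCD2 and FANCI, measured 64.3, 69.2, 67.6 and 61.3 CPM in wild type and 59.1, 63.8 and 65.9 CPM in Suz12 cKO. Its groups overlapped, at a log2 fold change of -0.06 ± 0.09 (edgeR adjusted p = 0.748).

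Of the 8 subunits of the core complex, which carries the ubiquitin ligase FANCL, only Fanca was called, and the median log2 fold change was -0.15. Fanca measured 7.94, 6.65, 8.11 and 6.12 CPM in wild type and 3.30, 1.90 and 3.75 CPM in Suz12 cKO. Every Suz12 cKO library was below every wild type library, with a log2 fold change of -1.27 ± 0.30 (edgeR adjusted p = 0.0311). Leaving out Suz12 cKO 1, Suz12 cKO 2, wild type 1 or wild type 3 ended this call (adjusted p = 0.0773 to 0.0898), and 10.5% of its exon bases are shared with Zfp276 on the opposite strand. Fancg, which binds FANCA within the core, measured 20.0, 16.6, 19.2 and 20.6 CPM in wild type and 13, 14.9 and 9.5 CPM in Suz12 cKO. These groups did not overlap either, but the difference was not called (log2 fold change -0.62 ± 0.18; edgeR adjusted p = 0.0692). Fance, the core gene of highest level per kilobase, measured 18.5, 16.5, 15.4 and 13.6 CPM in wild type and 15, 15.3 and 13.5 CPM in Suz12 cKO, with overlapping groups and an edgeR adjusted p of 0.676. The other core genes were not called: Fancb had a log2 fold change of -1.21, and Fancc, Fancf, Fancl and Fancm lay between -0.17 and 0.15.

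The BRCA1 complex and its link to BRCA2 was the role group with the lowest median log2 fold change, -1.77 over 5 genes. Brca1 and Brip1 were called lower, and in all 5 genes the Suz12 cKO libraries lay below the wild type libraries. Over all tested genes, 4.02% were called lower and 11.5% had that arrangement. This group also had the lowest median wild type level of the role groups, 1.08 CPM per kilobase. Brca1, a ubiquitin ligase and scaffold of recombination, measured 7.24, 9.21, 13.1 and 8.97 CPM in wild type and 3.5, 3.21 and 1.72 CPM in Suz12 cKO. Its log2 fold change was -1.78 ± 0.33 (edgeR adjusted p = 0.0114), and -2.52 in the low against -1.45 in the high haemoglobin libraries. Brip1, a helicase that binds BRCA1, measured 8.63, 9.91, 8.91 and 9.36 CPM in wild type and 2.45, 2.79 and 0.700 CPM in Suz12 cKO. The 4 wild type libraries were close to each other and Suz12 cKO 3 was the lowest of all, with a log2 fold change of -2.22 ± 0.44 (edgeR adjusted p = 0.0150). The fold change of Brip1 was -3.69 in the low haemoglobin libraries, where Suz12 cKO 3 is the only Suz12 cKO library, and -1.92 in the high.

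Bard1, the obligate partner of BRCA1, measured 4.12, 4.68, 4.63 and 4.47 CPM in wild type and 0.679, 0.853 and 2.39 CPM in Suz12 cKO. Here Suz12 cKO 3 was the highest of its group, and the log2 fold change of -1.77 ± 0.50 was not called (edgeR adjusted p = 0.0563). Without Suz12 cKO 3 it was -2.56 and Bard1 was called (edgeR adjusted p = 0.0113). Palb2, which bridges BRCA1 and BRCA2, measured 4.07, 2.51, 4.16 and 5.51 CPM in wild type and 1.97, 1.58 and 1.5 CPM in Suz12 cKO. Its groups did not overlap, and its log2 fold change of -1.27 ± 0.39 was not called (edgeR adjusted p = 0.0747). Brca2, named here after its values were seen, acts on resected DNA ends and measured 8.55, 8.22, 7.43 and 9.34 CPM in wild type and 5.02, 4.54 and 0.672 CPM in Suz12 cKO. Suz12 cKO 3 lay far below the other libraries, and the log2 fold change of -1.30 ± 0.56 was not called (edgeR adjusted p = 0.195); with Suz12 cKO 3 as the only Suz12 cKO library, in the low haemoglobin subset, it was -3.66.

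Among the 9 genes of the strand exchange mediators and paralogs, Rad51ap1 and Rad54l were called lower, and the median log2 fold change was -1.28. Rad51ap1, which promotes invasion of the intact duplex, measured 9.32, 4.84, 6.18 and 7.09 CPM in wild type and 1.28, 1.08 and 1.34 CPM in Suz12 cKO. The Suz12 cKO libraries were close together and well below the wild type libraries, at a log2 fold change of -2.47 ± 0.33 (edgeR adjusted p = 0.00288). Within the 3 libraries of high haemoglobin RNA, with 1 wild type library, Rad51ap1 was not called (edgeR adjusted p = 0.0637). Rad54l, a motor protein that remodels the joined strands, measured 5.27, 5.69, 4.16 and 4.37 CPM in wild type and 1.28, 2.15 and 2.10 CPM in Suz12 cKO. The groups did not overlap, and the log2 fold change was -1.40 ± 0.34 (edgeR adjusted p = 0.0347). That call ended without any 1 of the 3 Suz12 cKO libraries, wild type 1, wild type 3 or wild type 4 (adjusted p = 0.0556 to 0.0999), and 15.4% of the exon bases are shared with Lrrc41 on the opposite strand.

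Rad51c, a subunit of both paralog complexes of recombination, measured 1.92, 1.66, 1.04 and 1.98 CPM in wild type and 0.142, 0.411 and 0.476 CPM in Suz12 cKO. Its groups did not overlap, but the Suz12 cKO values rest on 9, 27 and 34 counts and the log2 fold change of -2.26 ± 0.75 was not called (edgeR adjusted p = 0.0949). Xrcc3, its partner in the smaller complex, measured 9.47, 9.68, 8.89 and 5.59 CPM in wild type and 7.16, 6.91 and 7.81 CPM in Suz12 cKO. Those groups overlapped, with a log2 fold change of -0.21 ± 0.24 (edgeR adjusted p = 0.670). Of the other 5 genes, none was called: Rad54b and Rad51b had log2 fold changes of -1.53 and -1.28, and Xrcc2, Rad51d and Rad52 lay between -0.13 and 0.35. About 35.8% of the Rad54b exon bases are shared with Fsbp on the same strand. Fsbp measured 0.0688 CPM in wild type and 0 CPM in Suz12 cKO on average. Rad51b had 5 counts in Suz12 cKO 1, the fewest of any listed gene in any library.

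None of the 7 genes of end processing and helicases was called by edgeR or by DESeq2, and their groups overlapped in every case. Over all tested genes, edgeR called 4.02% lower and 6.28% higher, so 0 calls among 7 genes is near the background. The groups lay apart in 11.5% (lower) and 14.1% (higher) of all tested genes. Of the 7, only Dna2 had an unadjusted edgeR p under 0.05. Dna2, a nuclease and helicase, had the second highest wild type level per kilobase of the whole list. It measured 113, 79.2, 108 and 97.3 CPM in wild type and 81.7, 85.8 and 63.3 CPM in Suz12 cKO. Wild type 2 lay within the Suz12 cKO range, and the log2 fold change of -0.37 ± 0.15 was not called (edgeR adjusted p = 0.171). The 3 genes of the MRN complex, which senses and trims broken ends, had log2 fold changes of -0.35 (Mre11a), -0.14 (Rad50) and -0.01 (Nbn). Rbbp8, the nuclease cofactor CtIP, was at 0.22, the helicase Blm at -0.47 and the exonuclease Exo1 at -0.12, the last with a standard error of 0.95 and a level of 0.107 CPM in Suz12 cKO 2 against 2.38 and 2.41 CPM in the other Suz12 cKO libraries.

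None of the 3 genes of the structure-specific nucleases, which cut branched DNA, was called by edgeR or by DESeq2. For a group of 3 genes this is near the background of 4.02% called lower and 6.28% called higher. Slx4 and Eme1 had an unadjusted edgeR p under 0.05. Slx4, the scaffold on which these nucleases assemble, measured 24.7, 16.3, 20.0 and 23.5 CPM in wild type and 15.7, 14.8 and 12.6 CPM in Suz12 cKO. The groups did not overlap, and the log2 fold change was -0.56 ± 0.18 (edgeR adjusted p = 0.0857). Mus81, a catalytic subunit, measured 16.3, 10.3, 12.6 and 14.0 CPM in wild type and 11.7, 11.2 and 13.6 CPM in Suz12 cKO, with overlapping groups and an edgeR adjusted p of 0.770. Eme1, its partner, had a log2 fold change of -1.39 ± 0.59 and non-overlapping groups, and was not called. About 8.0% of its exon bases are shared with Lrrc59 on the opposite strand. Lrrc59 measured 198 CPM in wild type and 225 CPM in Suz12 cKO on average.

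Of the 10 damage checkpoint genes, H2afx, Chek2 and Topbp1 were called lower and Trp53bp1 was called higher. H2afx, the histone variant that is phosphorylated around breaks, had the highest wild type level per kilobase of the list, 30.4 CPM per kilobase. It measured 40.8, 44.9, 39.9 and 40.4 CPM in wild type and 22.9, 18 and 22 CPM in Suz12 cKO. The groups were tight and clearly separate, at a log2 fold change of -0.98 ± 0.12 (edgeR adjusted p = 0.00196); 10.2% of its exon bases are shared with Gm44335 on the opposite strand. Topbp1, the activator of the kinase ATR, measured 69.8, 68.7, 60.8 and 63.1 CPM in wild type and 38.5, 33.3 and 43.5 CPM in Suz12 cKO. Its log2 fold change was -0.77 ± 0.11 (edgeR adjusted p = 0.00422), and in the 4 libraries of low haemoglobin RNA, with 1 Suz12 cKO library, it was not called (adjusted p = 0.0647).

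Chek2, an effector kinase downstream of ATM, measured 23.8, 16.7, 21.4 and 18.7 CPM in wild type and 11.6, 7.89 and 11.6 CPM in Suz12 cKO. The groups did not overlap, at a log2 fold change of -0.96 ± 0.20 (edgeR adjusted p = 0.0182). Without Suz12 cKO 2, wild type 1 or wild type 3 the adjusted p was 0.0517 to 0.0627. Trp53bp1, which encodes 53BP1, a chromatin reader that limits resection of broken ends, measured 28.3, 27.9, 29.1 and 33 CPM in wild type and 39.4, 37.9 and 42.4 CPM in Suz12 cKO. All 3 Suz12 cKO libraries were above the wild type libraries, and the log2 fold change was 0.43 ± 0.10 (edgeR adjusted p = 0.0330). This call ended when any Suz12 cKO library, wild type 1 or wild type 3 was left out (adjusted p = 0.0769 to 0.109), and 15% of its exon bases are shared with Tubgcp4 on the opposite strand.

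Clspn, the adaptor between ATR and CHK1, measured 15.6, 10.4, 11.2 and 7.88 CPM in wild type and 4.04, 4.29 and 10.5 CPM in Suz12 cKO. Suz12 cKO 3 lay within the wild type range, and the log2 fold change of -0.84 ± 0.38 was not called (edgeR adjusted p = 0.220). Without that library it was -1.45 and Clspn was called (edgeR adjusted p = 0.0326). Mdc1, which binds phosphorylated H2A.X, measured 53.2, 41.9, 51.8 and 57.5 CPM in wild type and 48.6, 51.3 and 44.4 CPM in Suz12 cKO, with overlapping groups and an edgeR adjusted p of 0.736. The apical kinase genes Atm and Atr and the ATR partner gene Atrip were not called, at log2 fold changes of -0.07, 0.06 and -0.05, and neither was the effector kinase gene Chek1, at -1.08 ± 0.55.

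The balance between partners was compared per kilobase of exon for 4 pairs of genes that were chosen after their values were seen, as a description. The ratio of Fanci to Fancd2, which encode the 2 subunits of the same clamp, was 1.78, 1.84, 1.86 and 3.68 in wild type and 0.455, 0.613 and 0.597 in Suz12 cKO. Fanci was thus the more abundant transcript in every wild type library and the less abundant in every Suz12 cKO library. The ratio of Chek2 to Atm was 1.74 to 3.00 in wild type and 0.959 to 1.54 in Suz12 cKO, and that of Chek1 to Atr was 0.200 to 0.338 against 0.0527 to 0.173. The ratio of Brca1 to Bard1 overlapped between the groups, at 1.44 to 2.32 in wild type and 4.23, 3.09 and 0.589 in Suz12 cKO, where Suz12 cKO 3 differed from the other two in both genes.

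**Figure D2:**
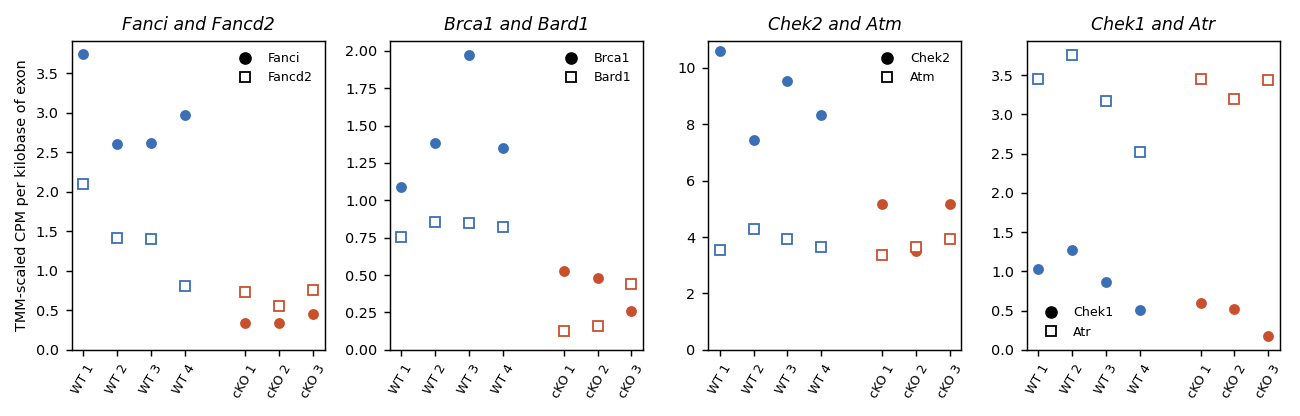
TMM-scaled CPM per kilobase of exon in each library for 4 pairs of partner genes, the first gene of a pair as filled circles and the second as open squares, wild type in blue and Suz12 cKO in red. Fanci lies above Fancd2 in all 4 wild type libraries and below it in all 3 Suz12 cKO libraries, and the levels of Atm and of Atr overlap between the groups.

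Level and difference were set side by side across the list. Of the 23 genes of higher wild type level, 3.22 to 30.4 CPM per kilobase, 5 were called lower and 1 higher, with a median log2 fold change of -0.13. Of the 23 of lower level, 0.322 to 2.98 CPM per kilobase, 5 were called lower, with a median of -1.27. Fanci had the highest level among this second set. The genes called lower therefore came from both sets, and H2afx, Topbp1 and Chek2 were the ones called at the highest levels, 30.4, 12.8 and 8.97 CPM per kilobase in wild type. Over all tested genes, 4.02% were called lower and the median log2 fold change was 0.00. These values were not counted for other genes of the same level. No test of the relation between level and difference was made, and genes of low level have larger standard errors.

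**Figure D3:**
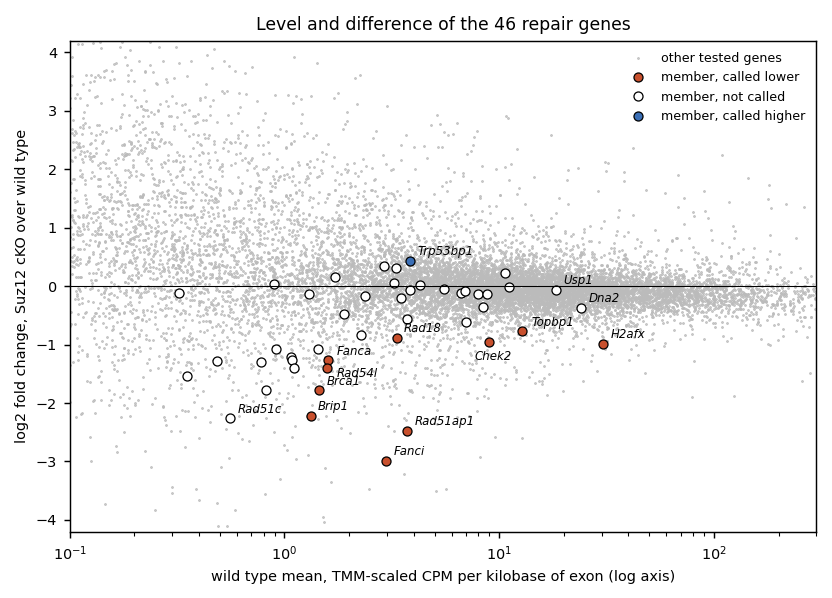
Wild type level per kilobase of exon (log axis) against log2 fold change for the tested genes in grey and the 46 listed genes as circles, red where called lower, blue where called higher and white where not called. Of 14436 tested genes, 1262 lie outside the axes. Fanci and Rad51ap1 stand lowest among the listed genes, and Usp1 and Dna2 are examples of abundant genes that were not called.

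The neighbouring genes of the same pathways, a list of 50 that had no overlap with the 46, held 6 genes called lower by edgeR. That is 12% of the list against 4.02% of all tested genes, with a median log2 fold change of -0.20. DESeq2 called 10 of the 50 lower, and 5.87% of all tested genes. None was called higher by either tool, and 0 had an unadjusted p under 0.05 in that direction. Fignl1, an ATPase of homologous recombination, had a log2 fold change of -1.59 ± 0.26 (edgeR adjusted p = 0.00622) and Rpa2, a subunit of the single-strand binding protein RPA, one of -1.10 ± 0.19 (edgeR adjusted p = 0.00765). Sfr1, a cofactor of strand exchange, was named as the gene of largest p, at 0.00 ± 0.10 (edgeR adjusted p = 0.990). Of the 50 genes, 41 lay below 0 and 9 above 0, the highest at 0.25.

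The other repair pathways, which do not use a sister copy, held 3 genes of 55 called lower by edgeR (5.45%, near the 4.02% of all tested genes). DESeq2 called 4 of the 55 lower, and 5.87% of all tested genes. At an unadjusted edgeR p under 0.05, 11 of the 55 were lower. The share of all tested genes at that threshold was not counted, so the 11 cannot be set against it. None of the 55 was called higher by either tool, with 0 at an unadjusted p under 0.05. In non-homologous end joining 0 of 10 genes were called by edgeR, by DESeq2 or at an unadjusted p under 0.05, with a median log2 fold change of 0.14 and values of 0.50 for Polm, 0.33 for Paxx, 0.15 for Xrcc5 and 0.09 for Lig4. In mismatch repair 0 of 7 were called by edgeR, 1 by DESeq2 and 2 at an unadjusted p under 0.05, with a median of -0.26 and values of -0.86 for Pms2, -0.28 for Mlh3 and -0.06 for Pms1. In nucleotide excision repair 1 of 17 was called, Cetn2 at -0.51 ± 0.11 (edgeR adjusted p = 0.0201), with a median of -0.08; Ercc6 lay at -0.38, Gtf2h1 at -0.24 and Gtf2h3 at -0.01. In base excision repair 2 of 21 were called, Fen1 at -0.88 ± 0.13 (edgeR adjusted p = 0.00445) and the glycosylase gene Neil3 at -2.03 ± 0.47 (edgeR adjusted p = 0.0283), with a median of -0.08; Aptx lay at -0.03. Fen1 also acts in replication. Whether the listed 46 genes differ from these pathways was not tested.

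Markers of proliferating cells were also lower in Suz12 cKO. Of 8 such markers 7 were called lower, against 4.02% of all tested genes. The eighth, Ccnb1, had an edgeR adjusted p of 0.0505. The summed level of the 8 was 281 to 316 CPM in wild type and 85.1 to 88.3 CPM in Suz12 cKO. Mki67 measured 116, 116, 103 and 94.8 CPM in wild type and 38.0, 33.5 and 28.8 CPM in Suz12 cKO, and Top2a measured 83.6, 79.4, 87.6 and 78.1 against 26.8, 24.4 and 26.3 CPM. The log2 fold changes of the 8 markers ran from -2.37 to -1.51, with a median of -1.75. Of the 10 listed repair genes called lower, Fanci at -2.99 and Rad51ap1 at -2.47 lay beyond that range, Brip1 and Brca1 lay within it, and the other 6 changed less. The part of proliferation, and that of the monocyte, neutrophil and macrophage markers given above, in the differences of the repair genes was not tested.

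**Figure D4:**
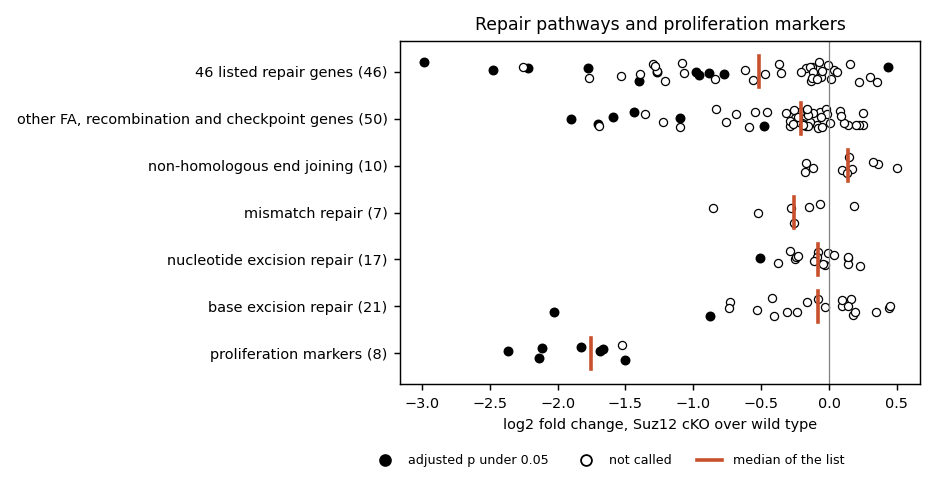
Log2 fold change of each tested gene in the list of 46, in the neighbouring pathway genes, in 4 other repair pathways and in the proliferation markers, filled where the adjusted p was under 0.05, with a red bar at the median of each list. The 46 genes lie from -2.99 to 0.43 and the 10 genes of non-homologous end joining from -0.18 to 0.50. The lists differ in size, and their ranges were not compared by a test.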

How the data were processed

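Whole-number read counts per gene were made by the authors with featureCounts (version not given) on mm10, per the submitters' processing notes, and deposited for 7 libraries; aligner, annotation and strand setting were not given. The deposited counts of every library exceed the read yield stated in the design text, for a reason not given, and no counting intervals are computed. Of 27179 Entrez genes, 25275 were matched to a symbol, and unmatched genes held 0.829% of counts; H2afx was matched through a synonym.

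Counts were tested with edgeR 4.0.16 (R 4.3.3): filterByExpr with minimum count 10 and minimum total 15, TMM scaling, genotype as the only term, the quasi-likelihood F-test and Benjamini-Hochberg adjustment over 14436 genes. The standard error is the log2 fold change over the square root of F. The procedure was also run on simulated counts that held no haemoglobin difference between libraries, and the outcome is not reported here. The 46 genes and the other lists were chosen with earlier results of these data known. Values in every library are given for Fanci, for called genes of the 46, and in each role group for the genes not called of smallest p and of highest level per kilobase. From the other repair lists, log2 fold changes are given for up to 3 genes of smallest p and the 1 of largest p. Some genes of these lists are not reported here by name. Exon overlaps are from GENCODE M21 (GRCm38), promoter windows from RefSeq (GRCm38.p6). Alternatives were DESeq2 1.42.0 size factors and Wald test, no filter, a replicate block, leaving out each library, a term for haemoglobin RNA (above 20 CPM), and the libraries of low or high haemoglobin RNA alone. P-values rest on the spread between 4 and 3 libraries.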

Additional observations from a re-analysis of the deposited data

Results flagged for a closer look

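Among 47 sets of 4 wild type libraries examined, 2 held a library far from the other 3. Atrip measured 16.2 CPM in wild type 1, and the gap to the nearest library was 0.973 of the whole range, above Dixon's critical value for 4 samples. About 16.0% of the Atrip exon bases are shared with Trex1 on the same strand. Xrcc2 measured 6.76 CPM in wild type 4, with a gap of 0.841 of the range. Chance gives about 1 such set in 20, so 2 of 47 is no more than chance gives. Neither gene was called.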

How the results depend on the processing

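All 11 called genes kept their sign under the 14 alternatives, and Fanci, Brip1 and H2afx stayed called in each. Genes called lower numbered 10 of 46 in the report, 6 to 15 with 1 library left out, 15 by the DESeq2 Wald test, 8 in the libraries of low haemoglobin RNA and 7 in those of high. The share of all tested genes called lower moved alongside, from 4.02% in the report to between 1.81% and 6.27% with 1 library left out, 5.87% by DESeq2, and 2.43% and 2.08% in the haemoglobin subsets. DESeq2 added Bard1, Fancd2, Fancg, Palb2 and Rad51c (adjusted p = 0.00758 to 0.0475). Leaving out wild type 2 added Dna2, Fancg, Palb2, Rad54b and Slx4, and leaving out wild type 4 added Fancd2. Bard1 was also called with the haemoglobin term (0.0466) and in the high haemoglobin libraries (0.0409), as was Clspn in the latter (0.0406), and Brca2, Dna2 and Fancg were called in the low ones. Trp53bp1, the 1 gene called higher, was called in 6 alternatives; the number called higher was 0 in the low and the high haemoglobin libraries, and 0 to 1 with 1 library left out. The neighbouring pathway genes called lower numbered 6 in the report, 10 by DESeq2, 3 in the low and 3 in the high haemoglobin libraries, and 3 to 9 with 1 library left out. The other repair pathways had 3, and 1 to 4 with 1 library left out. Where 1 arm was left with a lone library, it was assumed to vary like the other arm. Same-numbered libraries of the groups did not deviate together throughout (r = -0.0411, 0.242 and 0.158). Suz12 cKO 2 and Suz12 cKO 3 each correlated best with the wild type library of the same number. Suz12 cKO 1 correlated best with wild type 2 (r = 0.113), and the numbers were not taken as pairs. With a replicate block, 6 of the 46 genes were called lower and 0 higher, while the share of all tested genes called lower was 1.93%. In that setting 3 of the neighbouring genes were called lower. Brca1 (edgeR adjusted p = 0.0571), Fanca, Rad18, Rad54l and Trp53bp1 lost their call there. The causes of these shifts were not tested. Of the 35 genes not called, 14 changed sign in at least 1 alternative. The fewest counts of a listed gene in any library were 5, and depth limits the precision of such genes.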
